A study of Mus musculus with 3 samples.

Results

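The platelet-derived growth factor (PDGF) genes of the mouse were read out in sorted fetal kidney cells: the receptors Pdgfra and Pdgfrb and the ligands Pdgfa, Pdgfb, Pdgfc and Pdgfd. Members were chosen by gene symbol. Every probe set whose platform annotation gave a single symbol among these 6 genes was taken, which came to 14 of 45037 probe sets and to 6 of 18193 genes. The cells came from kidneys of CD-1 fetuses at embryonic stage E15.5 (Theiler stage 23) that carried the transgene Tg(Meis1-EGFP)FO156Gsat, a reporter in which control elements of Meis1 drive enhanced green fluorescent protein. Kidneys were pooled in lots of about 20, dissociated with trypsin, and the green cells were collected by fluorescence-activated cell sorting. The labels call the sorted cells nephrogenic interstitium, the outer stroma of the kidney, and the title of the series calls them peripheral blastema. There were 3 arrays of 1 group, with 1 pool per array, and no unsorted or green-negative cells were analysed here, so no contrast between groups exists.

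PDGF ligands are secreted as dimers that bring a pair of receptor tyrosine kinases together at the cell surface. The A and C chains act mainly through Pdgfra, the B chain acts through both receptors, and the D chain acts mainly through Pdgfrb. In vascular development generally, Pdgfb made by endothelium recruits Pdgfrb-bearing pericytes, and in the kidney this pair is required for the mesangial cells of the glomerulus. Pdgfra is widely used as a marker of mesenchymal and fibroblast cells.

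Of the 6 genes, 5 were above background. Both receptors and the ligand Pdgfc had strong signals in all 3 pools, as did Pdgfd at its brightest probe set only. Pdgfa had a weak signal, and neither probe set of Pdgfb rose above background on any array. At the level of probe sets 10 of 14 were above background, where 41.9% of all probe sets were, and among genes the 5 of 6 stood beside 57.2% of all genes. Background was set on each array from 70 chemosensory receptor genes, which detect odours and pheromones in sensory neurons, at the 95th percentile of their log2 signals. It corresponded to signals of 138, 187 and 170 in replicates 1, 2 and 3. A distance is the log2 signal minus that level, averaged over the 3 arrays, and was tested above 0 by limma in a one-sided test, adjusted over all probe sets by Benjamini-Hochberg with a threshold of 0.05. The SE given with a distance is the moderated one of limma, which draws on the spread of all features tested. It is not the plain SE of the 3 values. The median distance was 2.84 over the 14 member probe sets and -0.06 over all probe sets. Probe sets differ in how well they bind their target, so a distance says how clearly a probe set was detected and gives no order of level between genes.

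**Figure D1:**
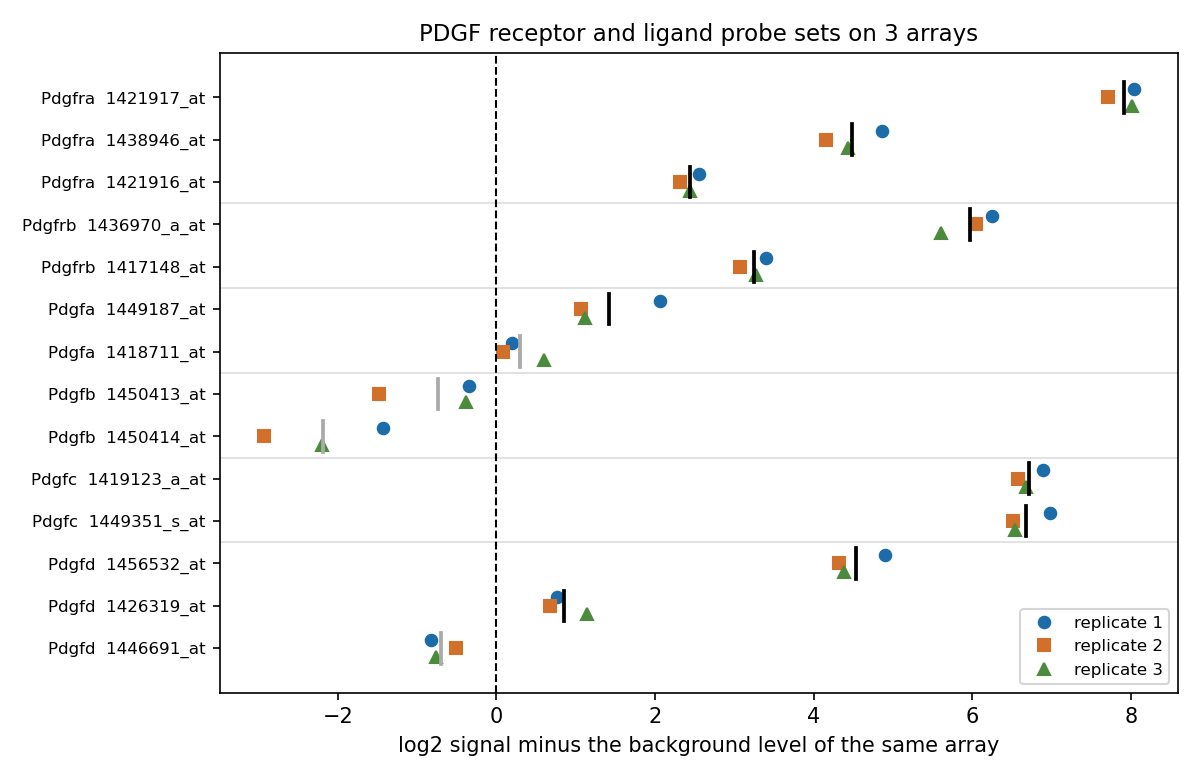
Log2 signal minus the background level of the same array (x axis) for each of the 14 probe sets (rows), with 1 point per array and a bar at the mean, black where the probe set was above background by limma and grey where it was not. All points of Pdgfra, Pdgfrb and Pdgfc lie well to the right of the dashed line at 0, both Pdgfb probe sets lie to its left on every array, and the 3 Pdgfd probe sets fall on both sides.

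The promoters of Pdgfra and Pdgfc are shown because this receptor and this ligand had every one of their probe sets above background and because the A and C chains signal through Pdgfra. The sequences come from RefSeq (GRCm38.p6, plus strand for both genes) and run from 250 bases before an annotated start to 20 bases from it. They were searched on both strands for TGACAG, the core bound by Meis factors such as the product of Meis1, whose control elements drive the reporter, for the GC box GGGCGG and for the TATA box TATAAA. The motifs do not overlap one another, were chosen after the expression values were seen, and matches are in capitals.
Pdgfra, chr5:75152001-75152270: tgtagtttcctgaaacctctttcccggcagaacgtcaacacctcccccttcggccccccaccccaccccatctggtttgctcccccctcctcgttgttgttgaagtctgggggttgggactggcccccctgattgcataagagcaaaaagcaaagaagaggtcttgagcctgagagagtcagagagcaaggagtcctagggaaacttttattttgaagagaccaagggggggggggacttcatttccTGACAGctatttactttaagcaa
Pdgfc, chr3:81036166-81036435: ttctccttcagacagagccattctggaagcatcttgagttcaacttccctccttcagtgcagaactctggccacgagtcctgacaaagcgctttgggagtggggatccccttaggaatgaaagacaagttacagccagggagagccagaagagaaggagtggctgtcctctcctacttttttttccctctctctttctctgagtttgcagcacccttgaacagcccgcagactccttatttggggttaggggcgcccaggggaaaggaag

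In the full windows of the table, which end 50 bases from the start, Pdgfra held 1 TGACAG, beginning 3 bases before the start, and neither of the other motifs. Pdgfc held none of the 3. The window of Pdgfd, not printed, held 1 TGACAG beginning 106 bases before its start and 1 TATAAA beginning 160 bases before it. Pdgfa had 2 windows, with 1 and 2 GC boxes and neither other motif. Among 32851 promoter windows of the same length, 19.2% held TGACAG, 35.7% GGGCGG and 13.6% TATAAA. A match is a run of letters and was not tested for binding. Pdgfb and Pdgfrb had no window among those searched and are not shown, although both Pdgfrb probe sets were also above background.

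Pdgfra, the receptor that binds the A and C chains, was detected by all 3 of its probe sets. The brightest, 1421917_at, had signals of 36232, 38915 and 43721 in replicates 1, 2 and 3, a mean of 39623 ± 3794 (SD, n = 3). The 3 arrays lay close together, with replicate 3 the highest as deposited. Its distance was 7.91 ± 0.21 log2 units (SE, n = 3), or 241-fold over the level, with a limma adjusted p = 1.67e-05. The probe set 1438946_at had signals of 4026, 3317 and 3662, with replicate 1 the highest, and lay 4.48 ± 0.24 units above background (limma adjusted p = 4.23e-05). The probe set 1421916_at had signals of 808, 932 and 928, with replicate 1 the lowest, and lay 2.44 ± 0.21 units above (5.42-fold; limma adjusted p = 2.0e-04). All 3 probe sets exceeded the level on every array, while their distances spanned more than 5 log2 units. With the mean over probe sets in place of the brightest, the gene lay 5.16 above background.

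Pdgfrb, the receptor of pericytes and mesangial cells, was detected by both of its probe sets. The brighter, 1436970_a_at, had signals of 10500, 12317 and 8301 in replicates 1, 2 and 3, a mean of 10373 ± 2011 (SD, n = 3). Replicate 3 was the lowest and replicate 2 the highest. Its distance was 5.97 ± 0.24 log2 units (SE, n = 3), or 62.5-fold over the level (limma adjusted p = 1.98e-05). The probe set 1417148_at had signals of 1451, 1567 and 1641, a mean of 1553 ± 95.6 (SD, n = 3), and lay 3.24 ± 0.21 units above (limma adjusted p = 7.62e-05). On this probe set replicate 3 was the highest, so the 2 probe sets did not place the pools in the same order. In bulk samples like these, fewer cells of a type and less RNA per cell cannot be told apart.

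Pdgfa, a short-range ligand of Pdgfra, was above background on 1 of its 2 probe sets. The probe set 1449187_at had signals of 575, 391 and 368 in replicates 1, 2 and 3, a mean of 445 ± 113 (SD, n = 3), with replicate 1 above the other two. Its distance was 1.41 ± 0.29 log2 units (SE, n = 3), or 2.66-fold over the level (limma adjusted p = 0.00687). That call was lost with a level from genes restricted to other tissues (0.72, limma adjusted p = 0.0665). The probe set 1418711_at had signals of 159, 198 and 257, where replicate 1 was the lowest, and its distance of 0.29 ± 0.22 units did not pass (limma adjusted p = 0.276). It did pass when the level was set at the 90th percentile (0.65, limma adjusted p = 0.0328).

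Pdgfb, the endothelial and platelet ligand that binds both receptors, was not above background. The probe set 1450413_at had signals of 108, 66.7 and 131 in replicates 1, 2 and 3, each under the level of its own array, and a distance of -0.74 ± 0.31 log2 units (SE, n = 3; limma adjusted p = 1). The probe set 1450414_at had signals of 51.5, 24.5 and 37.2 and a distance of -2.18 ± 0.35 units (limma adjusted p = 1). Replicate 2 was the lowest on both. Neither probe set was above background under any of the 12 alternatives that gave it a value. A probe set can fail, so this does not show that the transcript was absent.

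Pdgfc, a ligand of Pdgfra that carries a CUB domain and becomes active when that domain is cut off, was detected at similar distances by both of its probe sets. The probe set 1419123_a_at had signals of 16386, 17773 and 17349 in replicates 1, 2 and 3, a mean of 17169 ± 711 (SD, n = 3). The probe set 1449351_s_at had signals of 17454, 16959 and 15755, a mean of 16723 ± 874 (SD, n = 3). Replicate 1 was the lowest on the first and the highest on the second. The distances were 6.71 ± 0.21 and 6.67 ± 0.22 log2 units (SE, n = 3; 105-fold and 102-fold; limma adjusted p = 1.67e-05 for both). The suffix _s_at marks a probe set that can bind transcripts of more than 1 gene. Without probe sets of that kind the distance of the gene was 6.71. It could not change, since the gene is read at 1419123_a_at.

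Pdgfd, the other CUB-domain ligand and a partner of Pdgfrb, had 3 probe sets that did not give the same answer. The brightest, 1456532_at, had signals of 4111, 3731 and 3541 in replicates 1, 2 and 3, a mean of 3794 ± 290 (SD, n = 3), with replicate 1 the highest. Its distance was 4.53 ± 0.23 log2 units (SE, n = 3), or 23.1-fold over the level (limma adjusted p = 3.7e-05). The probe set 1426319_at had signals of 234, 298 and 375 and lay 0.86 ± 0.22 units above (limma adjusted p = 0.0161). This weaker call was lost without replicate 3 (0.72, limma adjusted p = 0.126), at the 99th percentile of those receptors (0.39, adjusted p = 0.212) and with a level from genes restricted to other tissues (0.16, adjusted p = 0.624). The probe set 1446691_at had signals of 78.3, 131 and 100.4, all below the level, and a distance of -0.70 ± 0.21 units (limma adjusted p = 1). The call of the gene therefore rests mainly on 1 probe set, and the mean over the 3 placed it 1.78 above background.

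**Figure D2:**
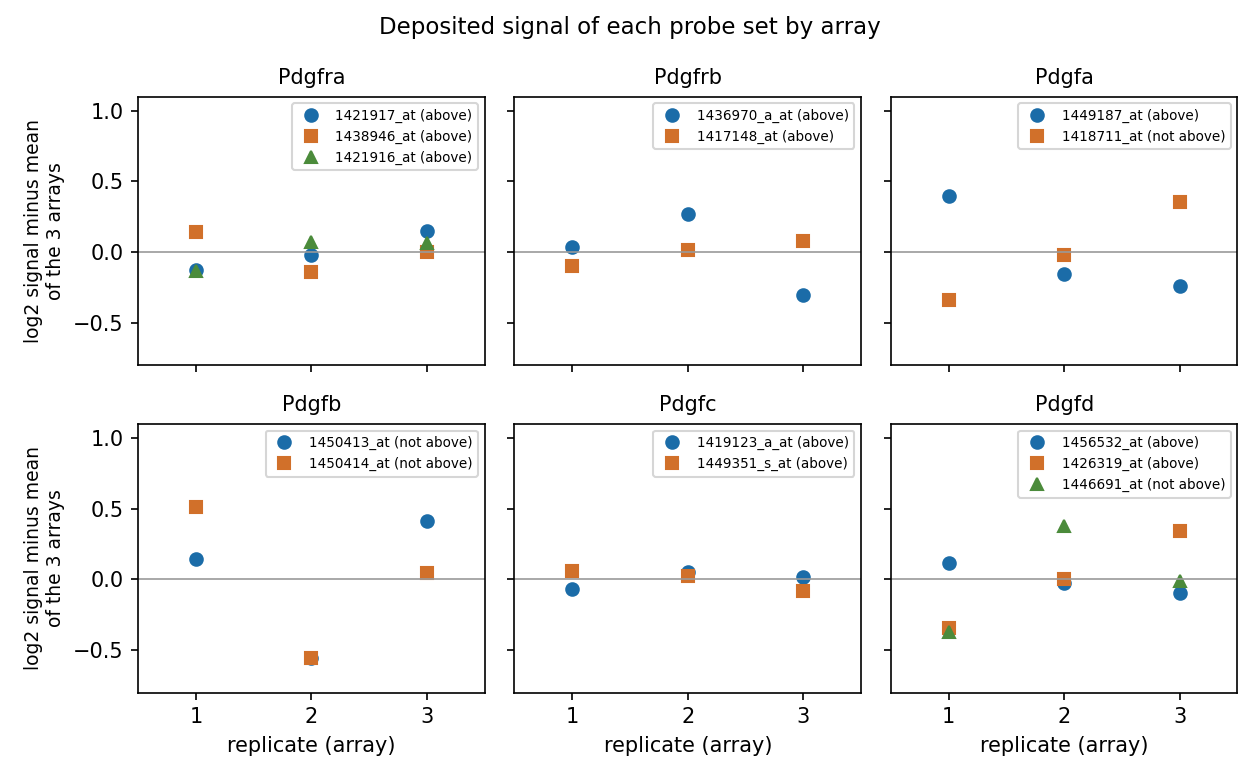
Deposited log2 signal of each probe set minus its own mean over the 3 arrays (y axis) by replicate (x axis), in 1 panel per gene; the legend says whether limma placed the probe set above background. The bright and the dim probe set of Pdgfa, 1449187_at and 1418711_at, run in opposite directions, the 2 of Pdgfrb part at replicate 3, and those of Pdgfc stay within 0.10 of their mean.

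At their brightest probe sets, Pdgfa and Pdgfrb varied between pools more than most genes and Pdgfc less. After each array was centred on its median, the SD over the 3 arrays of a gene's brightest probe set had a median of 0.30 log2 units over the 5 member genes above background and 0.27 over all genes above background. Pdgfra had an SD of 0.06, and 2.0% of all genes above background had a lower one. This closeness depended on the scaling, since 39.3% had a lower SD than Pdgfra on the deposited scale (0.14) and 28.6% after quantile normalization (0.11). Pdgfrb had an SD of 0.43, with 88.0% of genes below it, and replicate 3 was its lowest array at -0.50 from the mean. On the deposited scale replicate 3 was at -0.30 and after quantile normalization at -0.29, with 83.2% and 80.2% of genes below the SD of Pdgfrb. Pdgfa had an SD of 0.53, with replicate 1 at 0.59, and replicate 1 remained its highest array on the deposited scale (0.40) and after quantile normalization (0.46). Pdgfc was less variable, with 18.2%, 10.0% and 4.7% of genes below its SD on the centred, deposited and quantile scales. Pdgfd had an SD of 0.30, with 60.4%, 27.9% and 13.6% of genes below it on the same 3 scales. The other probe sets gave a different picture after centring: 7.3% of genes had a lower SD than Pdgfrb 1417148_at (0.11), 16.8% than Pdgfa 1418711_at (0.15) and 49.9% than Pdgfc 1449351_s_at (0.27). The array medians themselves differed, with signals of 143, 162 and 187 in replicates 1, 2 and 3, so centring moved every bright gene up in replicate 1 and down in replicate 3. The interstitium markers as a list had median deviations of 0.16, 0.04 and -0.17 after centring.

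Markers of mural cells also differed between the pools. The summed signal of 9 mural and mesangial genes was 22205, 18314 and 17704 in replicates 1, 2 and 3, with median deviations of 0.52, -0.02 and -0.32 after centring. Of the 9 genes, 6 were lowest in replicate 3 as deposited, 8 after centring and 5 after quantile normalization. The same share over all genes was not counted, so these counts show nothing particular to mural genes. After centring, all 5 pathway lists also had negative median deviations in replicate 3, from -0.14 to -0.30. A low replicate 3 on that scale was thus not particular to mural genes. In replicate 1 the centred medians of the other lists ran from -0.01 for macrophage and leukocyte markers to 0.50 for erythroid ones. The related VEGF family ligands had 0.47 and the early target genes 0.39, so a high replicate 1 was not particular to mural genes either. As deposited, the brighter Pdgfrb probe set was lowest on that array and the dimmer was highest there, while after centring both were lowest there. The brighter was highest in replicate 2 on the centred, deposited and quantile scales (0.27, 0.27 and 0.25). The mural sum and centred median were highest in replicate 1. Among the pericyte markers, Rgs5 had signals of 1601, 1021 and 1138 and Cspg4 had 2659, 2858 and 2907, so neither was lowest in replicate 3 as deposited, though both were after centring. The part of these cells in the Pdgfrb and Pdgfa values was not tested. Control probe sets at the 3' end of Gapdh exceeded those at its 5' end by 5.00, 5.39 and 5.26 log2 units, and those of Actb by 3.04, 3.40 and 3.04. Replicate 2 had the largest excess for both, and the part of RNA quality was not tested either.

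By a fixed rule the 3 genes closest to each receptor in pattern over the 3 arrays were taken from 96 genes of the pathway, family and marker lists that were above background. Likeness was the root mean square difference of centred log2 deviations. For Pdgfra these were Synpo (0.017), Kdr (0.022) and Plat (0.025), which also varied little. For Pdgfrb they were Slc9a3r1 (0.087), Vegfd (0.10) and Foxd1 (0.12), all lowest in replicate 3. With 3 arrays this describes the pools and says nothing of shared control.

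The remaining genes of the pathway were read by lists, at 1 value per gene, that of its brightest probe set. Of 57 genes on 5 pathway lists 50 had a value, and 43 of these (86.0%) were above background, against 57.2% of all genes. Every distance below is in log2 units with its moderated SE (n = 3). Calls are those of limma with Benjamini-Hochberg adjustment over all 18193 genes.

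Proteases that cut PDGF ligands were above background in 5 of 7 cases. Plat, tissue plasminogen activator, which activates the C chain by removing its CUB domain, had signals of 10381, 11057 and 12027 in replicates 1, 2 and 3 and lay 6.09 ± 0.20 above background. Plau, urokinase, which does the same for the D chain, had signals of 82.7, 13.7 and 98.6 and was not above background (-1.77 ± 0.63), nor was St14, the protease matriptase (-2.15 ± 0.27). Plat and Pdgfc were thus both detected in all 3 pools, while Pdgfd was detected with neither Plau nor St14 above background. The A and B chains are cut inside the cell by proprotein convertases, and of these Furin lay 1.67 ± 0.22 above, Pcsk5 5.24 ± 0.19, Pcsk6 1.88 ± 0.20 and Pcsk7 2.54 ± 0.21. The Pcsk5 value was 1.46 as a mean over its 5 probe sets, and that of Plat 3.36 over 2.

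Genes for proteins that bind the ligands or assist the receptors were above background in 5 of 6 cases. Sparc, a matrix protein that binds the B chain, had signals of 11486, 8990 and 6945 in replicates 1, 2 and 3 and lay 5.77 ± 0.26 above, with replicate 1 the highest. Nrp1, a co-receptor, lay 5.99 ± 0.19 above, Lrp1, an endocytic receptor that associates with Pdgfrb, 3.87 ± 0.22, and the proteoglycan Hspg2 3.58 ± 0.20. As means over probe sets Sparc lay 2.99 above and Nrp1 4.43. A2m, a plasma protein that traps growth factors, was not above background (-0.03 ± 0.24), and its sign changed with the setting.

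Signalling proteins close to the receptors were above background in 19 of 20 cases, with a median distance of 5.03 against 1.5 over all genes. The adaptor Grb2 lay 3.23 ± 0.22 above, Shc1 3.23 ± 0.22, the Ras exchange factor Sos1 6.22 ± 0.22 and the docking protein Gab1 6.90 ± 0.20. Pik3cb, a catalytic subunit of phosphoinositide 3-kinase, was the one not above (0.12 ± 0.21). As means over their probe sets Sos1 lay 1.19 above, Gab1 4.87 and Grb2 2.68. With such means 16 of the 20 genes were above background. Genes that dampen the receptors were above in 7 of 8 cases: the phosphatases Ptpn1 and Ptpn2 lay 3.37 ± 0.21 and 6.87 ± 0.22 above, Acp1 6.74 ± 0.21 and the ubiquitin ligase Cbl 5.66 ± 0.24. As means over probe sets Cbl lay 1.16 above, Acp1 3.01, Ptpn2 4.37 and Ptpn1 3.15, and the count of dampening genes above background was 6 of 8. Ptprj, a receptor-type phosphatase that acts on Pdgfrb, was not above background (-0.50 ± 0.21).

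Early target genes, which PDGF induces in cultured fibroblasts, were above in 7 of 9 cases. The count was 6 of 9 at the 99th percentile and with tissue-restricted genes as background. It was also 6 without replicate 1, without replicate 3, without _x_at and _s_at probe sets, and with the mean over probe sets. The transcription factors Fos and Egr1 lay 7.14 ± 0.19 and 7.96 ± 0.20 above background, Myc 2.59 ± 0.23 and Ier2 5.35 ± 0.24. Ccl2 (-3.31 ± 0.30) and Ptgs2 (-3.31 ± 0.46) were not above background. Fos, Egr1 and Ier2 are also induced by tissue dissociation, which every pool went through, and no undissociated kidney was analysed here, so the 2 origins cannot be told apart.

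**Figure D3:**
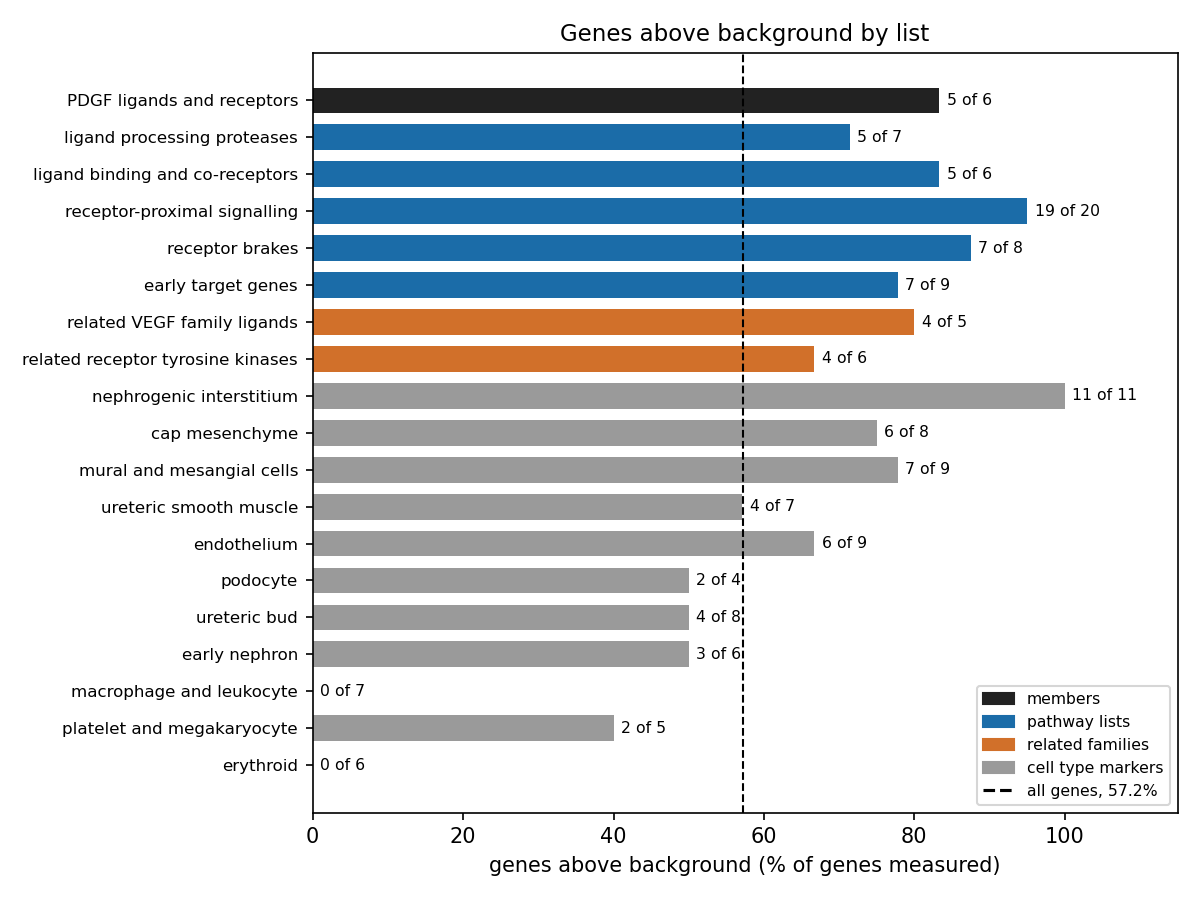
Share of measured genes above background (x axis, percent) for the PDGF members and each list (rows), with counts beside the bars and a dashed line at the 57.2% of all genes. The members (5 of 6) and all 5 pathway lists lie to the right of the line, and the macrophage and erythroid lists have 0 genes above background.

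Relatives of the family were above background in part, where 57.2% of all genes were. Of the VEGF ligands, which share the cystine-knot fold, 4 of 5 were above background: Vegfa at 2.17 ± 0.25, Vegfb at 0.92 ± 0.28, Vegfc at 3.26 ± 0.21 and Vegfd at 4.55 ± 0.20. Pgf was not (-2.13 ± 0.61). The count was 3 of 5 where Vegfb lost its call, without replicate 1 (0.60, limma adjusted p = 0.0512), at the 99th percentile (0.46, adjusted p = 0.158) and with tissue-restricted genes as background (0.23, adjusted p = 0.362). Of 6 receptor tyrosine kinases related to the PDGF receptors 4 were above: Kit at 3.42 ± 0.23, Csf1r at 1.13 ± 0.19, Kdr at 1.05 ± 0.20 and Flt4 at 0.58 ± 0.20. Flt3 (-2.45 ± 0.84) and Flt1 (-0.69 ± 0.24) were not. The count of 4 fell to 2 with the level at the 99th percentile and to 1 with a level from genes restricted to other tissues, where Kit was the one that remained. The Flt4 call was also lost without replicate 2 or 3 (limma adjusted p = 0.0527 and 0.217), and that of Csf1r as a mean over probe sets (0.25, adjusted p = 0.259). Pdgfra and Pdgfrb were above background in every alternative.

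The cell types that make or answer PDGF were checked by their markers. Beside the counts below, 57.2% of all genes were above background, and the endothelial share of 66.7% was near that. Of the markers of the labelled interstitium 11 of 11 were above background, among them Foxd1 (7.45 ± 0.20) and Meis1 (6.82 ± 0.20), whose detection the sort itself favours. Cap mesenchyme markers were above in 6 of 8 cases, with Six2 at 1.84 ± 0.20 and Eya1 at 3.45 ± 0.27, and Cited1 (-4.22 ± 0.19) and Osr1 (-3.15 ± 0.37) not above. The rest of those above were Gdnf (7.35 ± 0.19), Sall1 (6.10 ± 0.20), Itga8 (5.45 ± 0.24) and Meox1 (2.57 ± 0.21). Mural and mesangial markers, the cells in which Pdgfrb is best known, were above in 7 of 9 cases, with Cspg4 at 4.10 ± 0.20 and Rgs5 at 2.91 ± 0.27, and Des (0.30 ± 0.21) and Anpep (-1.74 ± 0.39) not above. Endothelial markers, the usual source of Pdgfb, were above in 6 of 9 cases, with Cdh5 at 1.29 ± 0.22 and Tek at 2.84 ± 0.19. Pecam1 (-1.66 ± 0.73) and Tie1 (-3.75 ± 0.57) were not above. Platelet and megakaryocyte markers, another store of Pdgfb, were above in 2 of 5 cases, with Pf4 at 0.56 ± 0.20 and Itga2b at 1.01 ± 0.23, and Ppbp (-1.05 ± 0.21) and Gp9 (-3.67 ± 0.38) not above. Both platelet calls were weak. That of Pf4 was lost without replicate 1, 2 or 3 (limma adjusted p = 0.053, 0.0953 and 0.143) and that of Itga2b without replicate 3 (adjusted p = 0.0672), and both were lost with either stricter background level.

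Markers of ureteric smooth muscle were above background in 4 of 7 cases, of podocytes in 2 of 4, of the ureteric bud in 4 of 8 and of the early nephron in 3 of 6. None of 7 macrophage and leukocyte or 6 erythroid markers was above background by limma, and 0 of either list had an unadjusted p under 0.05. Which cells of the sort carried each PDGF transcript was not measured.

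**Figure D4:**
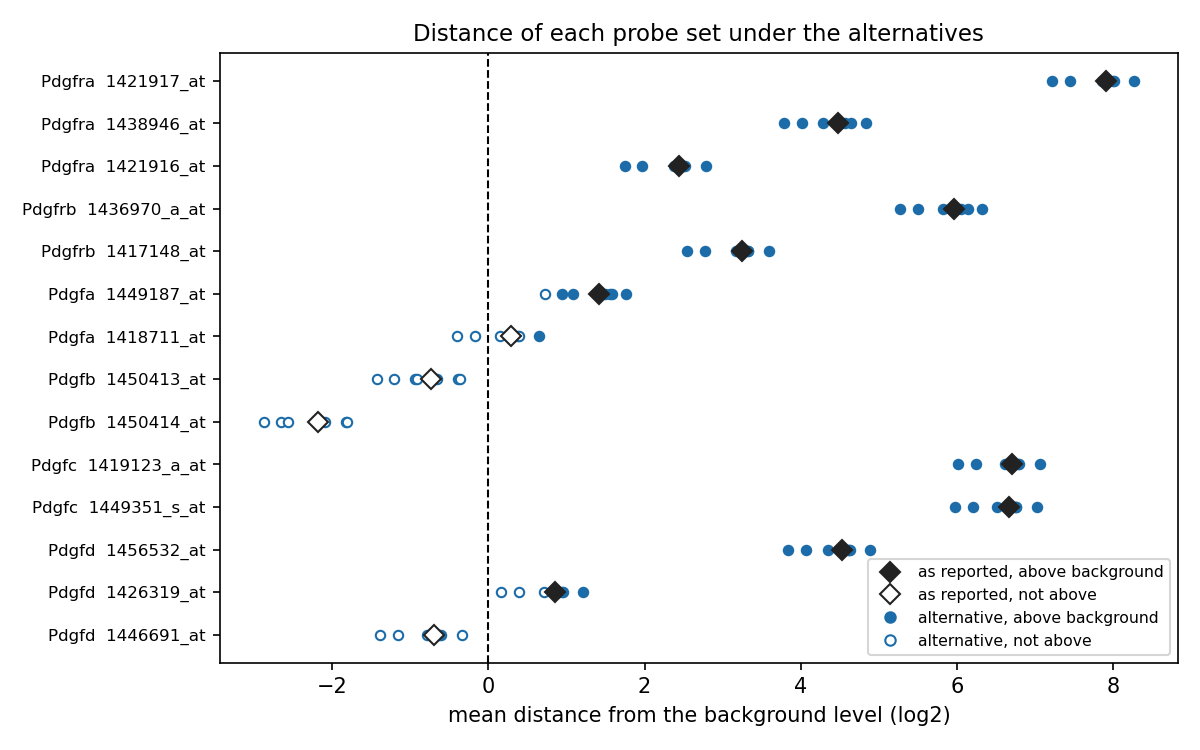
Mean distance from the background level (x axis, log2) of each probe set (rows) as reported (diamonds) and under each alternative (circles), filled where limma placed it above background. Filled and unfilled symbols mix only for both Pdgfa probe sets and for Pdgfd 1426319_at, and the symbols of both Pdgfb probe sets are all unfilled and left of 0.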

How the data were processed

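Total RNA of 3 pools of sorted cells went through 2 rounds of amplification and biotin labelling before hybridisation to 1-colour Affymetrix arrays, per the labels' protocols. The authors deposited 1 intensity value per probe set and array on a linear scale. The submitters' processing notes name GCOS without a version, and its signal algorithm is not given in the sources used here. After trimming 2% at each end the mean was 1500.01 on each of the arrays, a sign of scaling before deposit. No value was 0 or below, and log2 was taken without a pseudocount.

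Of 45101 probe sets 64 controls were set aside, and 34945 carried 1 symbol in the platform annotation, 932 several and 9160 none. Entrez IDs were looked up in RefSeq (GRCm38.p6) and changed no symbol. The detection test (limma 3.58.1 in R 4.3.3: lmFit with an intercept, eBayes, one-sided, Benjamini-Hochberg, threshold 0.05) ran on all 45037 non-control probe sets and, separately, on 18193 genes at their brightest single-symbol probe set. It was tested on simulated data. Its SE is moderated by eBayes and carries the spread of the background levels. The number of arrays limits the precision, and nothing says that the pools were separate litters. The p-values therefore weigh the distance above background against the spread among these samples only, and that spread is possibly technical.

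All member probe sets are named, as are, per pathway and family list, the first 4 genes above background and the first 3 below the threshold, the first 2 of each kind in 5 marker lists, and the 3 genes nearest each receptor. For cap mesenchyme the other genes above background are also named. Of 218 list genes 20 were not analysed here. The members and lists were chosen with earlier results of these data known. Alternatives changed the background percentile or genes, the normalization, the filter, the probe sets used and the arrays.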

Additional observations from a re-analysis of the deposited data

How the results depend on the processing

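All 6 genes kept their call in every alternative that gave them a value, as did 11 of the 14 member probe sets, and the number of member probe sets above background ran from 8 to 11. Leaving out 1 replicate gave 9 to 10 probe sets and 5 genes. The weaker Pdgfa probe set 1418711_at fell to -0.17 with the level at the 99th percentile and to -0.40 with genes restricted to other tissues as background. With that level Pik3cb lay at -0.57, Flt4 at -0.11, Des at -0.40 and Pf4 at -0.13, and at the 99th percentile Pik3cb lay at -0.34 and Des at -0.17. The mean over probe sets put Eya1 at -0.30, Rgs5 at -0.64, Des at -0.24, Cdh5 at -0.048 and A2m at 0.18. A2m lay at 0.33 at the 90th percentile, at 0.056 with all chemosensory probe sets as background, and between -0.27 and 0.12 without 1 replicate. The cause was not tested. Of 6 related kinases 2 were above background at the 99th percentile, 1 with tissue-restricted genes, and 1 when the dimmer features were left out, where 1 of the 6 was tested. The median SD of the 6 members' brightest probe sets was 0.37 after centring, 0.21 as deposited and 0.19 after quantile normalization, and 0.14 to 0.32 without 1 replicate. Keeping chemosensory pseudogenes in the background, an alternative chosen after seeing the data, changed no member's call. No paired analysis was possible because the series holds 1 group.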

Other observations

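Pdgfrl, a receptor-like gene outside the member rule that was looked at after its values were seen, had signals of 552, 577 and 333 in replicates 1, 2 and 3, with replicate 3 the lowest as for the brighter Pdgfrb probe set. It lay 1.53 ± 0.26 log2 units above background (SE, n = 3; limma adjusted p = 0.00141).

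The 4 member genes with 2 or more probe sets above background (Pdgfc, Pdgfd, Pdgfra and Pdgfrb) did not rank the pools alike. On the deposited scale the brightest and the next probe set had their highest signal on the same array in 0 of 4, where 1733 of 4158 genes (41.7%) did so. After centring on the array median it was 2 of 4, beside 2476 of 4158 (59.5%). On the deposited scale, which pool was highest for each of these 4 genes depended on the probe set that was read.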
